A study of Homo sapiens with 12 samples.

Results

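NFE2L2, the gene of the transcription factor NRF2, and 9 genes whose products hold, release, partner or answer to NRF2 were followed in human liver spheroids exposed to total parenteral nutrition (TPN). The genes were KEAP1, CUL3, SQSTM1, BACH1, MAFG, MAFF, MAFK, OSGIN1 and NFE2L1. They were taken by symbol, 10 of the 16705 genes with values, and all 10 passed the filter on low expression described below. RNA was sequenced from spheroids of C3A and LX-2 cells in 4 groups of 3 replicates: spheroids left untreated or given 1% TPN, each for either 24 h or 144 h. C3A is a clone of the HepG2 hepatoma line, LX-2 is an immortalised line of activated hepatic stellate cells, and both were seeded for every group. TPN is an intravenous nutrition mixture, here of amino acids with electrolytes, glucose and a lipid emulsion plus vitamins and trace elements, diluted in culture medium. Many spheroids were pooled for each library, so a value covers whatever cells of both lines the spheroids held, and each line stands for 1 source of cells.

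In unstressed cells NRF2 protein is bound by KEAP1, the adaptor of a ubiquitin ligase built on the scaffold CUL3, and is degraded. Electrophiles that modify KEAP1, or SQSTM1 (p62), an autophagy receptor that binds KEAP1 in place of NRF2, let NRF2 accumulate, pair with a small MAF protein (MAFF, MAFG or MAFK) and bind antioxidant response elements, while BACH1 pairs with the same MAF proteins and represses many of the same genes. NRF2 is therefore controlled mainly as a protein, which RNA sequencing does not measure. OSGIN1 is an oxidative stress-induced growth inhibitor, and NFE2L1 (NRF1) is a relative of NRF2 that is released from the endoplasmic reticulum and drives proteasome genes.

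Stretches of 3 promoters are printed because they show where antioxidant response element letters lie next to the member with the largest rise (OSGIN1), the member that fell (NFE2L2) and a small MAF gene (MAFG). RefSeq windows from 250 bases before to 50 bases after the gene start (build GRCh38.p14) were found for 9 of the 10 members, all but MAFK. The start was that of 1 RefSeq transcript, and at least NFE2L2, MAFG, BACH1, OSGIN1 and MAFF have other annotated starts. Positions are given from the start used. Both strands were searched for the core TGACNNNGC, for its looser form TGANNNNGC, which contains every TGACNNNGC match, and for GCTGANTCA, a core of the MAF recognition element, added after the promoters were read, which read on the other strand is always a TGANNNNGC match too. Capitals mark the match, and each stretch is written 5′ to 3′ on the strand of its gene.

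OSGIN1, chr16:83953096-83953194, plus strand: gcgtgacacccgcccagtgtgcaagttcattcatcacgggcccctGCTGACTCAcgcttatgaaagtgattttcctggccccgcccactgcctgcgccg
NFE2L2, chr2:177264224-177264322, minus strand: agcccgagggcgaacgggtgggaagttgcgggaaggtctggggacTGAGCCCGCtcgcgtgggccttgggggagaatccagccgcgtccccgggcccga
MAFG, chr17:81927736-81927816, minus strand: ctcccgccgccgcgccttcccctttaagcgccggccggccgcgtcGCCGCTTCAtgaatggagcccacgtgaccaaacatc

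In OSGIN1 the match to GCTGANTCA began at position -99 from the gene start, and OSGIN1 was the 1 member that held it. Among the promoters of tested genes with an entry (9625), 1.02% held GCTGANTCA, 15.4% held TGACNNNGC and 43.5% held TGANNNNGC. In NFE2L2 the printed TGANNNNGC match began at position -146, and a further match lay at -16. The MAFG match was on the opposite strand, at -36. BACH1 and MAFF also held TGANNNNGC, and MAFF alone of the 9 held TGACNNNGC (TGACCCCGC, at -122 on the opposite strand). OSGIN1 held a further TGANNNNGC match at -124, and KEAP1, CUL3, SQSTM1 and NFE2L1 had none of the 3 words within this window. These matches describe letters only, and no binding was measured.

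Expression was given as FPKM, a fragment count corrected for how long the transcript is and how deeply the library was sequenced, which permits levels of different genes to be set side by side. Per library, FPKM summed to between 561657 and 583722 and between 10936 and 11074 genes reached 1 FPKM. Steps in the low values of 65 short genes gave about 18700000 fragments per library (18300000 to 19400000), an estimate that rests on transcript lengths from another annotation. Each library's estimate used only 15 to 23 low values, and the steps fitted least well in 1% TPN 144 h replicates 1 and 3. The lowest member value, 6.71 FPKM, would then stand on about 217 fragments for a transcript of 2000 bases. How much counting error adds to the spread of the low members was not tested. Each ± value is the SD between the 3 replicates of a group, which the study describes as independent experiments. Standard errors (SE), 95% intervals and p values rest instead on 1 estimate of the spread per gene, shared by the 12 libraries. The 9 hepatocyte markers all exceeded 1 FPKM in every group, with summed levels of 14666 to 15114 FPKM in untreated and 13861 to 13987 FPKM in exposed spheroids at 24 h, and 18688 to 19853 against 15552 to 16692 FPKM at 144 h. The markers did not move as 1 with time. In untreated spheroids ALB averaged 4392 FPKM at 24 h and 6044 FPKM at 144 h, and AHSG 2805 and 5587 FPKM. APOB was lower at 144 h (762 and 487 FPKM), as was HNF4A (106 and 85.7 FPKM). Of 11 stellate markers, 10 and 9 averaged at least 1 FPKM at 24 h and 6 and 5 at 144 h, untreated and exposed respectively, and none was at 0 throughout a group. Their sum was 195 to 202, 187 to 192, 218 to 228 and 237 to 239 FPKM. The order is untreated then exposed at 24 h, then untreated then exposed at 144 h. LOX averaged 56.6, 64.8, 146 and 166 FPKM, whereas COL1A1 averaged 15.1, 15.1, 1.92 and 0.747 FPKM and VIM 15.6, 13.2, 2.44 and 1.08 FPKM. ACTA2 (57.8, 47.3, 47.9 and 45.4 FPKM) and PDGFRB (3.10, 3.01, 3.08 and 2.32 FPKM) moved less. SPARC averaged 41.8, 38.8, 20.8 and 21.7 FPKM. In untreated spheroids 8 of the 10 tested stellate markers were lower at 144 h and 1 was higher. In such bulk samples fewer cells of a type and less RNA per cell cannot be told apart, and the part of this shift in the results at 144 h was not tested. Macrophage markers summed to at most 1.75 FPKM and endothelial markers to at most 1.07 FPKM in any library, with MARCO at 0 in all libraries of the 24 h groups and KDR and STAB2 at 0 in all but the untreated 24 h group. Of 5 cholangiocyte markers 4 had values, and these summed to 334 to 352, 320 to 327, 301 to 313 and 271 to 280 FPKM in the same order of groups. The sum came from KRT19, EPCAM and SOX9, while KRT7 averaged at most 0.033 FPKM in any group.

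Differences were tested on log2(FPKM + 0.1) with limma over the 11713 genes with a mean of at least 0.5 FPKM. A gene passed at a Benjamini-Hochberg adjusted p below 0.05 over all these genes, and was called a DEG when its log2 fold change also exceeded 0.58 in size. By mean level over the 12 libraries the members ran from SQSTM1 (212 FPKM) and NFE2L1 (168 FPKM) through NFE2L2 (88.7 FPKM), OSGIN1 (58.4 FPKM), KEAP1 (47.2 FPKM) and CUL3 (23.7 FPKM) to MAFG (18.4 FPKM), MAFK (17.1 FPKM), MAFF (14.9 FPKM) and BACH1 (10.3 FPKM). The order was not fixed: the ranges over the libraries of MAFG, MAFK and MAFF overlapped, and OSGIN1 stood below KEAP1 in untreated spheroids and above it with TPN.

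**Figure D1:**
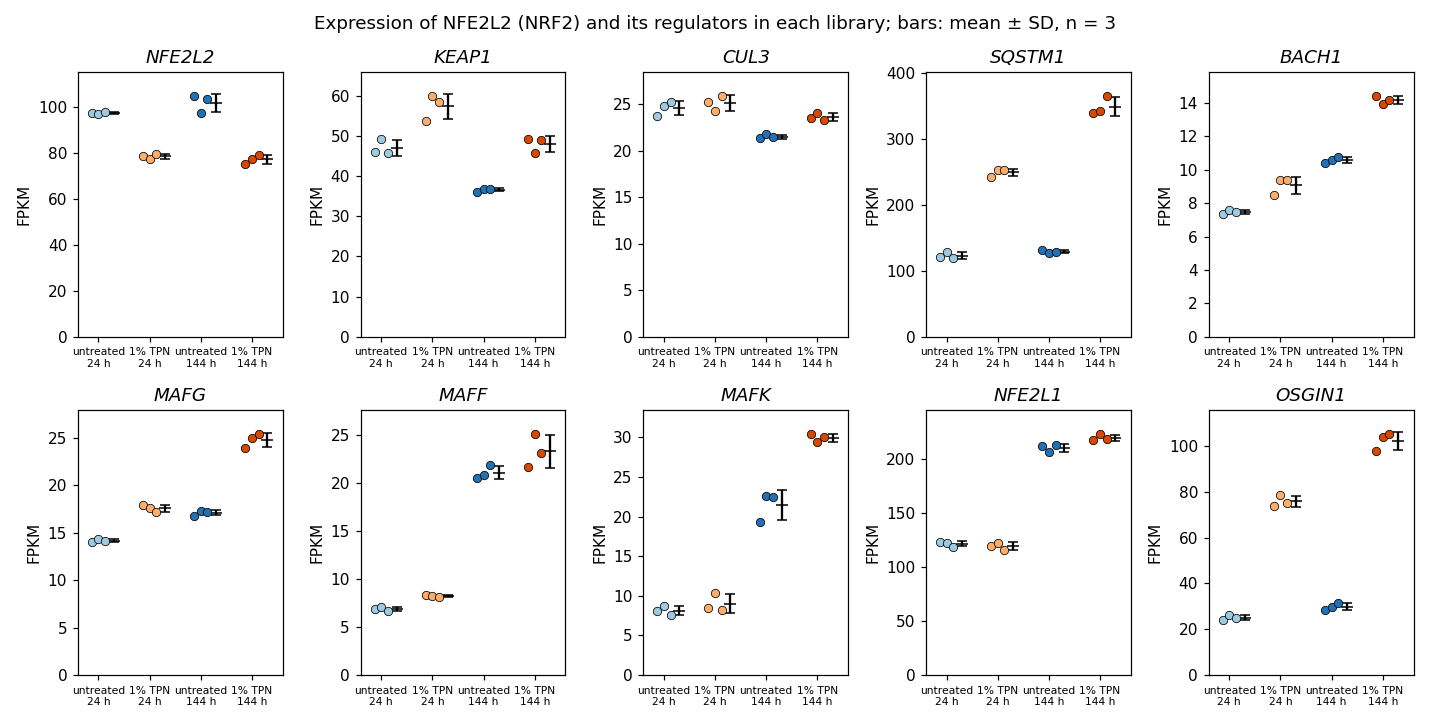
Expression (FPKM, linear axis from 0) of each of the 10 genes in every library, with untreated and exposed groups side by side for each time; points are libraries, and the bars beside them are mean ± SD (n = 3). OSGIN1 and SQSTM1 were higher in each exposed library than in any untreated one, NFE2L2 was lower in each, and MAFF, MAFK and NFE2L1 were separated by time.

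With 1% TPN for 24 h, 7 of the 10 members passed the test, 6 of them higher and NFE2L2 lower, against a background of 10.5% of all tested genes (5.04% higher and 5.46% lower). The same 7 were those whose exposed and untreated libraries did not overlap, which held for 29.9% of all genes. OSGIN1 and SQSTM1 were DEGs, a call made for 0.914% of genes. After 144 h, 9 members passed, 8 higher and NFE2L2 lower, where 52.5% of all genes passed (24.2% higher and 28.3% lower), so at this time most genes of any kind changed. The same 2 members were DEGs at 144 h, against 9.48% of genes. The median log2 fold change of the 10 members was 0.27 at 24 h and 0.40 at 144 h, beside -0.0045 and -0.02 over all genes.

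NFE2L2, on chromosome 2 from 177229191 to 177267010 (GRCh38.p13, as the deposited table places it and the other genes), was the member that fell. Its level was 97.46, 97.04 and 97.71 FPKM in the untreated libraries at 24 h and 78.81, 77.18 and 79.49 FPKM with TPN. At 144 h it was 104.73, 97.25 and 103.36 FPKM untreated and 75.30, 77.23 and 78.97 FPKM with TPN. No exposed library reached any untreated one, and the exposed ranges of both times overlapped. The log2 fold changes were -0.31 (SE 0.0312, limma adjusted p = 1.95e-05) and -0.40 (SE 0.0312, limma adjusted p = 1.934e-07), and their difference was -0.09 (95% interval -0.18 to 0.0077, limma adjusted p = 0.155). Without untreated 144 h replicate 2 that difference was -0.12 and passed (limma adjusted p = 0.0408). The transcript thus stood at 0.806 and 0.759 of its untreated level.

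KEAP1 (chromosome 19, 10481837 to 10503356), which presents NRF2 to the ligase, rose at both times. Its libraries held 45.85, 49.17 and 45.75 FPKM untreated and 53.71, 59.90 and 58.28 FPKM with TPN at 24 h, and 36.10, 36.84 and 36.67 against 49.08, 45.62 and 49.01 FPKM at 144 h. The groups did not overlap at either time. The log2 fold change was 0.29 at 24 h (limma adjusted p = 0.0009376) and 0.39 at 144 h (limma adjusted p = 7.22e-06), with SE 0.0445 for each. CUL3 (chromosome 2, 224442413 to 224585363), the scaffold to which KEAP1 docks, held 23.74, 24.76 and 25.28 FPKM untreated and 25.23, 24.26 and 25.89 FPKM with TPN at 24 h, and the groups overlapped (log2 fold change 0.03, 95% interval -0.05 to 0.11, limma adjusted p = 0.667). At 144 h CUL3 rose from 21.35, 21.76 and 21.45 FPKM to 23.48, 24.07 and 23.30 FPKM, a log2 fold change of 0.13 (SE 0.0358, limma adjusted p = 0.00657). CUL3 and MAFF had the smallest changes of the 9 members that passed at 144 h.

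SQSTM1 (chromosome 5), which competes with NRF2 for KEAP1 and is itself known as an NRF2 target, was 120.87, 128.50 and 118.73 FPKM in untreated libraries at 24 h and 242.55, 252.15 and 252.78 FPKM with TPN. At 144 h it was 131.24, 127.36 and 127.92 FPKM against 339.57, 341.94 and 364.78 FPKM. The exposed libraries stood far above the untreated ones at both times. At 24 h SQSTM1 rose 2.03-fold, with a log2 fold change of 1.02 (SE 0.0356, limma adjusted p = 4.48e-10), and at 144 h it rose 2.70-fold, with a log2 fold change of 1.44 (SE 0.0356, limma adjusted p = 2.184e-12). The effect was larger at 144 h by 0.41 on the log2 scale (SE 0.0504, limma adjusted p = 5.267e-05), in a test that 30.4% of all genes passed (14.1% with a more positive and 16.3% with a more negative effect at 144 h). Of the 10 members 4 passed it, SQSTM1, OSGIN1, MAFG and MAFK, each with the larger rise at 144 h.

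OSGIN1 (chromosome 16, 83953240 to 83966332) rose most of the 10 at both times. It held 24.13, 26.22 and 24.93 FPKM untreated and 74.06, 78.55 and 75.19 FPKM with TPN at 24 h. At 144 h it held 28.55, 29.85 and 31.38 FPKM untreated and 97.98, 104.18 and 105.23 FPKM with TPN. Every exposed library stood above every untreated one of either time. The increases were 3.02-fold (log2 fold change 1.59) and 3.42-fold (log2 fold change 1.77, SE 0.0436, limma adjusted p = 2.092e-12). Their difference of 0.18 passed narrowly (SE 0.0616, limma adjusted p = 0.0423) and did not pass in 10 of 23 alternative settings, among them the omission of single libraries.

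BACH1 (chromosome 21, 29298922 to 29386475), the repressor that shares small MAF partners with NRF2, was 7.36, 7.56 and 7.46 FPKM untreated and 8.49, 9.37 and 9.37 FPKM with TPN at 24 h. At 144 h it was 10.38, 10.57 and 10.78 FPKM against 14.41, 13.93 and 14.17 FPKM. Groups were apart at both times, and BACH1 rose by a log2 fold change of 0.28 (SE 0.046, limma adjusted p = 0.00148) and 0.42 (SE 0.046, limma adjusted p = 4.933e-06). The difference between the times was 0.14 (95% interval 0.0003 to 0.28, limma adjusted p = 0.121). The transcripts of the factor and of its competitor therefore moved in opposite directions in every exposed group, NFE2L2 down and BACH1 up.

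Among the small MAF genes, whose products lack an activation domain and serve as partners of either NRF2 or BACH1, MAFG (chromosome 17, 81918270 to 81927735) rose at both times. MAFG held 14.06, 14.37 and 14.07 FPKM untreated and 17.86, 17.62 and 17.13 FPKM with TPN at 24 h, then 16.78, 17.32 and 17.12 against 23.94, 25.00 and 25.36 FPKM at 144 h. Exposed and untreated libraries did not overlap. The log2 fold change was 0.31 (SE 0.0354, limma adjusted p = 8.297e-05) and then 0.53 (SE 0.0354, limma adjusted p = 3.848e-08), larger at 144 h by 0.23 (SE 0.0501, limma adjusted p = 0.00392).

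MAFK (chromosome 7, 1530702 to 1556149) did not pass at 24 h, with 8.11, 8.71 and 7.55 FPKM untreated, 8.46, 10.34 and 8.16 FPKM with TPN, and overlapping groups (log2 fold change 0.14, 95% interval -0.04 to 0.32, limma adjusted p = 0.348). This value varied with single libraries, being 0.03 without 1% TPN replicate 2, 0.09 without untreated replicate 3 and 0.20 without 1% TPN replicate 3. At 144 h it rose from 19.34, 22.54 and 22.52 FPKM to 30.39, 29.41 and 30.01 FPKM, a log2 fold change of 0.48 (SE 0.0838, limma adjusted p = 0.0002919). The difference between the times, 0.34 (SE 0.1185, limma adjusted p = 0.0427), was past the threshold but was lost in 10 of 23 alternative settings.

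MAFF (chromosome 22, 38201994 to 38216511) passed at both times. It rose at 24 h from 6.83, 7.06 and 6.71 FPKM to 8.29, 8.28 and 8.09 FPKM, a log2 fold change of 0.26 (SE 0.0511, limma adjusted p = 0.00531). At 144 h it held 20.53, 20.88 and 21.89 FPKM untreated and 21.66, 25.09 and 23.18 FPKM with TPN, so that the groups overlapped. The log2 fold change of 0.14 passed (SE 0.0511, limma adjusted p = 0.0326) but was lost in 8 of 24 alternative settings, with an adjusted p of 0.162 and a log2 fold change of 0.09 without 1% TPN replicate 2. The call was also lost without untreated replicate 1 (limma adjusted p = 0.103), untreated replicate 2 (limma adjusted p = 0.0815) or 1% TPN replicate 3 (limma adjusted p = 0.0625).

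NFE2L1 (chromosome 17, 48048329 to 48061545), the relative of NRF2 that drives proteasome genes, did not pass with TPN at either time. It held 123.53, 122.37 and 118.96 FPKM untreated and 120.08, 122.74 and 115.99 FPKM with TPN at 24 h (log2 fold change -0.02, 95% interval -0.08 to 0.04, limma adjusted p = 0.658). At 144 h the levels were 212.35, 206.73 and 212.93 FPKM against 218.30, 223.29 and 218.70 FPKM, and here the groups did not overlap although the log2 fold change of 0.06 missed the threshold (95% interval 0.0035 to 0.12, limma adjusted p = 0.0707). Of all tested genes, 57.3% had groups that did not overlap at 144 h, and 9 members did.

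**Figure D2:**
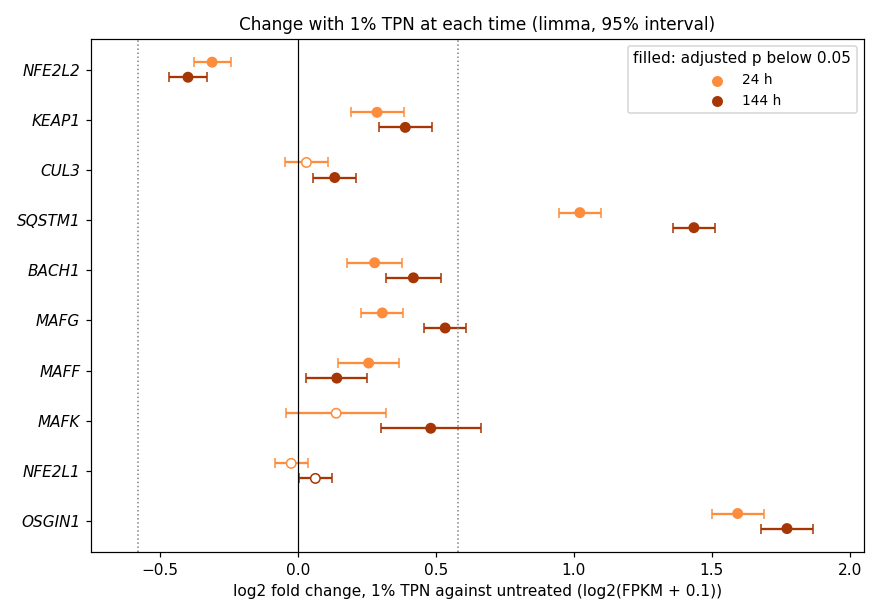
Log2 fold change of each gene with 1% TPN against untreated at 24 h (light) and 144 h (dark), on log2(FPKM + 0.1), with 95% intervals from limma; filled points had an adjusted p below 0.05 and dotted lines mark the DEG threshold of 0.58. NFE2L2 is the gene left of 0 at both times, and OSGIN1 (1.59 and 1.77) and SQSTM1 (1.02 and 1.44) are the ones past the threshold.

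The proportions among the transcripts also shifted, and these ratios of FPKM are given as a description without a test. NFE2L2 stood at 2.08 ± 0.0909 times KEAP1 in untreated and 1.37 ± 0.0898 times in exposed spheroids at 24 h, and at 2.79 ± 0.134 against 1.61 ± 0.0793 times at 144 h (SD, n = 3). Against BACH1 it stood at 13.1 ± 0.206 and 8.67 ± 0.547 times at 24 h and at 9.63 ± 0.446 and 5.45 ± 0.193 times at 144 h. Both ratios were lower with TPN in every library, and of the pair NFE2L2 to BACH1 was also lower at 144 h than at 24 h within each condition.

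MAFF, MAFG and MAFK together amounted to 29.2 ± 0.915 FPKM untreated and 34.7 ± 1.43 FPKM with TPN at 24 h, and to 59.6 ± 2.62 and 78.0 ± 1.82 FPKM at 144 h. MAFG made up 48.6% and 50.5% of that sum at 24 h, untreated and exposed, but 28.7% and 31.7% at 144 h. The sum differed more between the times than between exposed and untreated spheroids. NFE2L2 was 3.34 ± 0.116 times the small MAF sum in untreated spheroids at 24 h and 0.989 ± 0.017 times in exposed spheroids at 144 h. SQSTM1 was 2.61 ± 0.0206 times KEAP1 in untreated and 4.35 ± 0.154 times in exposed spheroids at 24 h, and 3.53 ± 0.0952 and 7.29 ± 0.319 times at 144 h. NFE2L1 was 1.25 ± 0.0272 times NFE2L2 in untreated spheroids at 24 h and 2.85 ± 0.0727 times in exposed spheroids at 144 h.

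**Figure D3:**
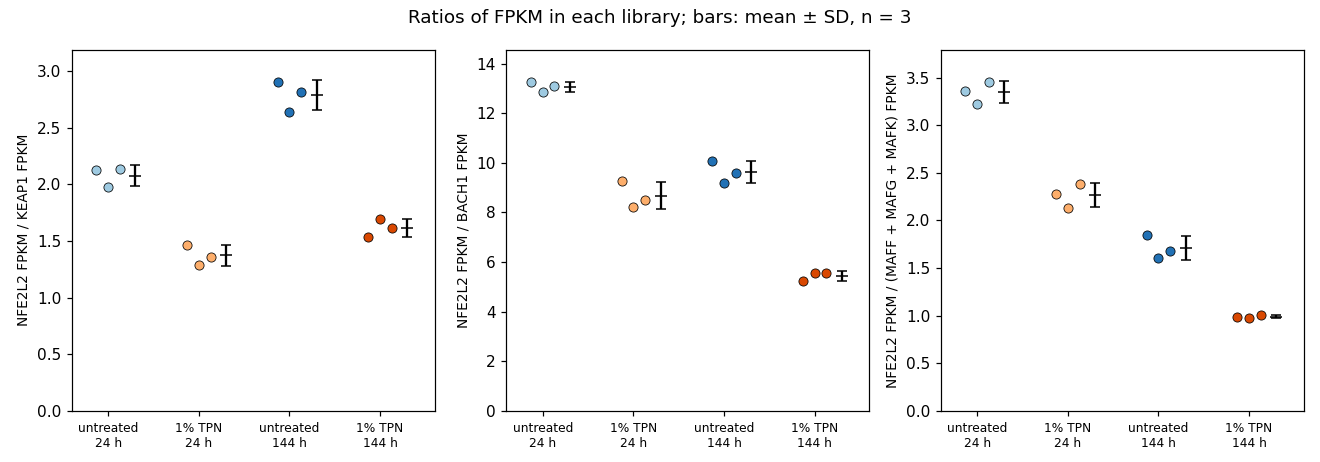
Ratio of the FPKM of NFE2L2 to that of KEAP1, of BACH1 and of the sum of MAFF, MAFG and MAFK in each library (points) with mean ± SD (n = 3) beside them, on linear axes from 0. Within each time all 3 ratios were lower in exposed than in untreated libraries, and the last was 0.989 in exposed spheroids at 144 h.

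Time in culture was compared within each condition. In these comparisons the median log2 change of all genes was -0.18 in both untreated and exposed spheroids, so each change is also given relative to that median. In untreated spheroids 8 members passed, 6 higher and 2 lower at 144 h, where 72.6% of all genes passed (20.1% higher and 52.4% lower). Libraries did not overlap between the times for the same number of members, against 74.9% of genes. With TPN 9 members passed, 7 higher and 2 lower, where 76.2% of genes passed (24.2% higher and 52.0% lower), and 9 members did not overlap, against 77.9% of genes.

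MAFF, MAFK and NFE2L1 had the largest differences with time, and they were the 3 DEGs in untreated spheroids (19.0% of genes were). MAFF rose 3.04-fold without treatment, a log2 fold change of 1.61 (SE 0.0511, limma adjusted p = 1.362e-11) or 1.79 relative to the median. MAFK rose 2.62-fold (log2 fold change 1.39, limma adjusted p = 5.213e-09) and NFE2L1 1.73-fold (log2 fold change 0.79, limma adjusted p = 2.823e-11). In exposed spheroids the corresponding log2 fold changes were 1.49, 1.73 and 0.88. BACH1 changed by 0.50 untreated (limma adjusted p = 3.485e-07) and by 0.64 with TPN (limma adjusted p = 1.867e-08), which made it a further DEG there, where 26.7% of genes were DEGs. In untreated spheroids BACH1 also exceeded the threshold with median-ratio scaling (0.67), quantile normalization (0.62) and the GC content and length trend removed (0.62).

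MAFG was higher at 144 h by 0.27 untreated and 0.50 with TPN, and OSGIN1 by 0.25 and 0.43, with limma adjusted p values between 1.738e-08 and 0.0001318. SQSTM1 rose with time under TPN (log2 fold change 0.48, limma adjusted p = 2.311e-08). Without treatment its change of 0.07 did not pass (95% interval -0.01 to 0.15, limma adjusted p = 0.0876). NFE2L2 did not pass in either condition, with 0.06 untreated (limma adjusted p = 0.086) and -0.02 with TPN (limma adjusted p = 0.484). Relative to the median of all genes NFE2L2 stood at 0.25 and 0.16 and untreated SQSTM1 at 0.25, and with median-ratio scaling NFE2L2 and SQSTM1 passed as higher in untreated spheroids (0.24 and 0.25). With that scaling NFE2L2 also passed as higher under TPN (0.15, limma adjusted p = 0.0006264). In untreated spheroids NFE2L2 also passed without 144 h replicate 2 (0.095, limma adjusted p = 0.0121), and SQSTM1 without 24 h replicate 2 (0.10, limma adjusted p = 0.0186).

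KEAP1 was lower at 144 h by a log2 fold change of -0.36 untreated (limma adjusted p = 6.203e-06) and -0.26 with TPN (limma adjusted p = 0.0001214), or -0.18 and -0.07 relative to the median. CUL3 was lower by -0.19 (limma adjusted p = 0.0002736) and -0.09 (limma adjusted p = 0.037), or -0.01 and 0.10 relative to the median. The CUL3 difference therefore turned on the scaling, and with median-ratio scaling its log2 fold changes were -0.01 untreated and 0.09 with TPN. The latter passed as higher (limma adjusted p = 0.0368). Under TPN the CUL3 call was also lost without 24 h replicate 1 or 3 or 144 h replicate 1 or 3 (limma adjusted p = 0.0831 to 0.146). With that scaling the KEAP1 change under TPN was -0.08 and did not pass (limma adjusted p = 0.113).

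**Figure D4:**
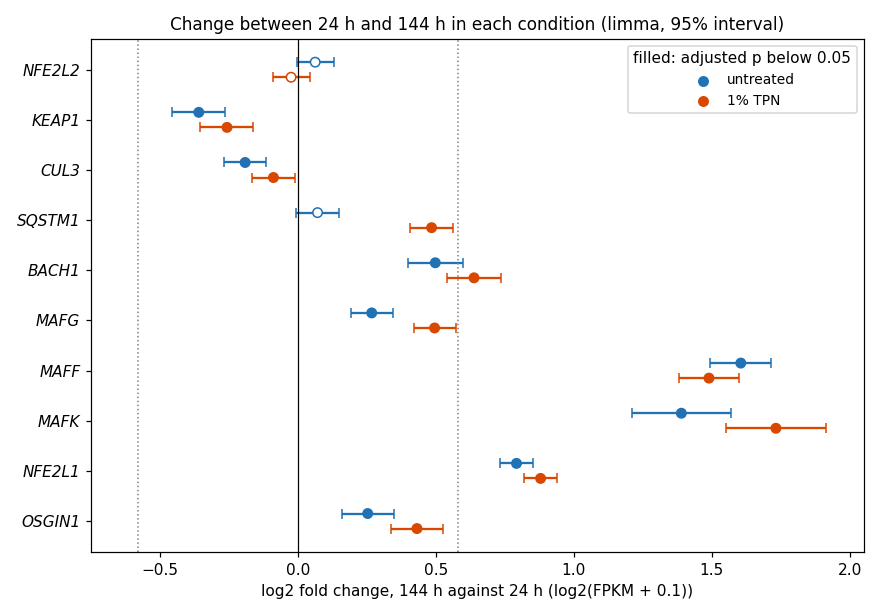
Log2 fold change of each gene at 144 h against 24 h in untreated (blue) and exposed (orange) spheroids, on log2(FPKM + 0.1), with 95% intervals from limma; filled points had an adjusted p below 0.05 and dotted lines mark 0.58 in either direction. MAFF, MAFK and NFE2L1 lie right of the threshold in both conditions, and the median of all genes was -0.18, left of 0.

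The pathway around the members was examined with 10 lists of other genes, none of them a member. The lists were chosen with earlier results of these data known, so their counts are a description. Of 25 known NRF2 targets, 24 were expressed, all but ME1, and all 24 were higher with TPN at both times, where 5.04% and 24.2% of all genes were. The median log2 fold change was 0.54 at 24 h (range 0.14 to 1.69) and 0.97 at 144 h (range 0.23 to 2.26). At 24 h 11 were DEGs and at 144 h 20, beside 0.914% and 9.48% of all genes. HMOX1, the haem-degrading oxygenase, went from 97.2 ± 3.34 to 283 ± 10.4 FPKM at 24 h and from 72.5 ± 3.11 to 320 ± 13.99 FPKM at 144 h (log2 fold changes 1.54 and 2.14). GCLM, the modifier subunit of the enzyme that limits glutathione synthesis, went from 7.50 ± 0.346 to 24.4 ± 1.05 and from 5.09 ± 0.667 to 22.7 ± 1.196 FPKM (1.69 and 2.14). AKR1B10, an aldo-keto reductase, went from 173.9 ± 13.4 to 468 ± 13.5 and from 91.8 ± 5.68 to 440 ± 16.3 FPKM (1.43 and 2.26). The difference between the times passed for 21 targets, all with the larger effect at 144 h, where 14.1% of all genes passed with a more positive effect. In untreated spheroids 19 of the 24 were lower at 144 h than at 24 h and 3 were higher, with a median of -0.38, beside 52.4% of all genes lower, 20.1% higher and an all-gene median of -0.18. The direction of NFE2L2 mRNA was thus opposite to that of these genes with TPN. Of the 25 target promoters 17 had an entry, of which 9 held TGANNNNGC, 4 held TGACNNNGC and 1, that of ME1, held GCTGANTCA. AKR1C1 and AKR1C2, both among the targets, are close paralogs whose reads may be split between them.

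Beside the counts of the remaining lists stand the 10.5% of all genes that passed at 24 h and the 52.5% that passed at 144 h. Of 9 genes of the KEAP1-CUL3 ligase machinery, UBE2M, the enzyme that attaches NEDD8, was the one that passed at 24 h (log2 fold change 0.19), and at 144 h UBE2M was higher (0.15) and CAND1 (-0.14) and COPS5 (-0.16) were lower. Median log2 fold changes of the list were -0.04 and -0.05. Of 7 other cullins, CUL4A was higher at 24 h (0.15), and CUL7 was higher (0.10) and CUL1 lower (-0.14) at 144 h, with medians of -0.01 and 0.02. CUL4A was named after its value was seen, like AMER1, ATF3, NRL, TFEB and the PSMA3, PSMB1 and PSMD14 subunits in the following lists. Among 11 genes of the second route that degrades NRF2 and of NRF2 kinases, 0 passed at 24 h by limma, with 1 at an unadjusted p below 0.05. At 144 h PRKCD (0.19), FBXW11 (0.18) and GSK3B (0.14) were higher, and BTRC (-0.14) and CUL1 (-0.14) were among the genes that were lower. FBXW11 and BTRC are paralogous substrate receptors of the same ligase. The medians of this list were -0.04 and 0.04.

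Of 9 proteins that bind KEAP1, MCM3, a replication helicase subunit, fell at 24 h (log2 fold change -0.30) and further at 144 h (-0.63, from 139.6 ± 0.886 to 90.2 ± 1.15 FPKM). At 144 h PALB2 (-0.19) and AMER1 (-0.30) were also lower, while the ubiquitin ligase TRIM25 (0.46) and the stress protein SESN2 (0.39) were higher. Medians were -0.03 and 0.05. Beside MCM3 stand the 10 proliferation genes, whose summed level was 1077 to 1092 FPKM untreated and 959 to 971 FPKM with TPN at 24 h, and 651 to 669 against 471 to 489 FPKM at 144 h. Their part in the MCM3 result was not tested. Of 9 coactivators and repressors of NRF2, ATF3 was higher at 24 h (0.26) and the Mediator subunit MED16 was lower at 144 h (-0.19), with medians of -0.0023 and -0.02. Of 7 other factors of the CNC and MAF families, 3 were expressed. NFE2L3 was higher at both times, from 6.56 ± 0.318 to 7.71 ± 0.415 FPKM (0.23) and from 4.59 ± 0.424 to 6.01 ± 0.182 FPKM (0.39), and NRL, at 0.35 to 0.66 FPKM in any library, was lower at 144 h (-0.49). The median of the 3 was 0.12 at 24 h and 0.04 at 144 h. BACH2, MAF and MAFA were at most 0.33 FPKM in any library.

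Of 14 expressed partners of SQSTM1 in selective autophagy, GABARAPL1 passed at 24 h, where 10.5% of all genes did, and at 144 h 6 were higher and 2 lower, where 52.5% of all genes passed. Regardless of direction these shares lie near the background. By direction, the 6 higher and 2 lower at 144 h stand beside 24.2% and 28.3% of all genes. GABARAPL1, which couples cargo receptors to the autophagosome membrane, went from 9.84 ± 0.881 to 14.4 ± 1.05 FPKM at 24 h (0.54, limma adjusted p = 0.0004942) and from 22.1 ± 2.21 to 50.8 ± 2.70 FPKM at 144 h (1.198, limma adjusted p = 3.212e-08). MAP1LC3B, the membrane protein LC3B, was 49.8 ± 1.72 and 50.4 ± 1.02 FPKM at 24 h and rose from 106.2 ± 1.68 to 160.1 ± 3.80 FPKM at 144 h (0.59). The kinase ULK1 was 7.44 ± 0.417 and 8.61 ± 0.739 FPKM at 24 h and rose from 11.8 ± 0.622 to 17.1 ± 1.18 FPKM at 144 h (0.53). NBR1, a receptor related to SQSTM1, was lower at 144 h by a small margin (-0.10), as was TFEB (-0.36). The list's medians were -0.02 and 0.08, well under the 1.02 and 1.44 of SQSTM1 itself.

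Genes tied to NFE2L1 showed small changes with TPN. Of 5 genes of NFE2L1 processing, 0 passed at 24 h by limma, with 3 at an unadjusted p below 0.05. At 144 h HM13 (0.16) and NGLY1, which removes sugar chains from NFE2L1 (0.15), were higher, and the protease DDI2, which cuts it, was lower (-0.25). The medians were -0.01 and 0.04. Of 32 proteasome subunits, 5 were higher at 24 h (PSMD11, PSMD12, PSMD14, PSMA3 and PSMB1, at most 0.25), where 5.04% of all genes were. At 144 h 7 were higher, led by PSMD12 (0.25), PSMD11 (0.23) and PSMD13 (0.16), and 8 were lower, led by PSMC3 (-0.42), PSMA2 (-0.18) and PSMA6 (-0.16), beside 24.2% of all genes higher and 28.3% lower. The medians were 0.05 and 0.03. With time all 32 subunits were lower at 144 h in untreated spheroids (median -0.34), where 52.4% of all genes were lower with a median of -0.18, while NFE2L1 itself was higher.

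**Figure D5:**
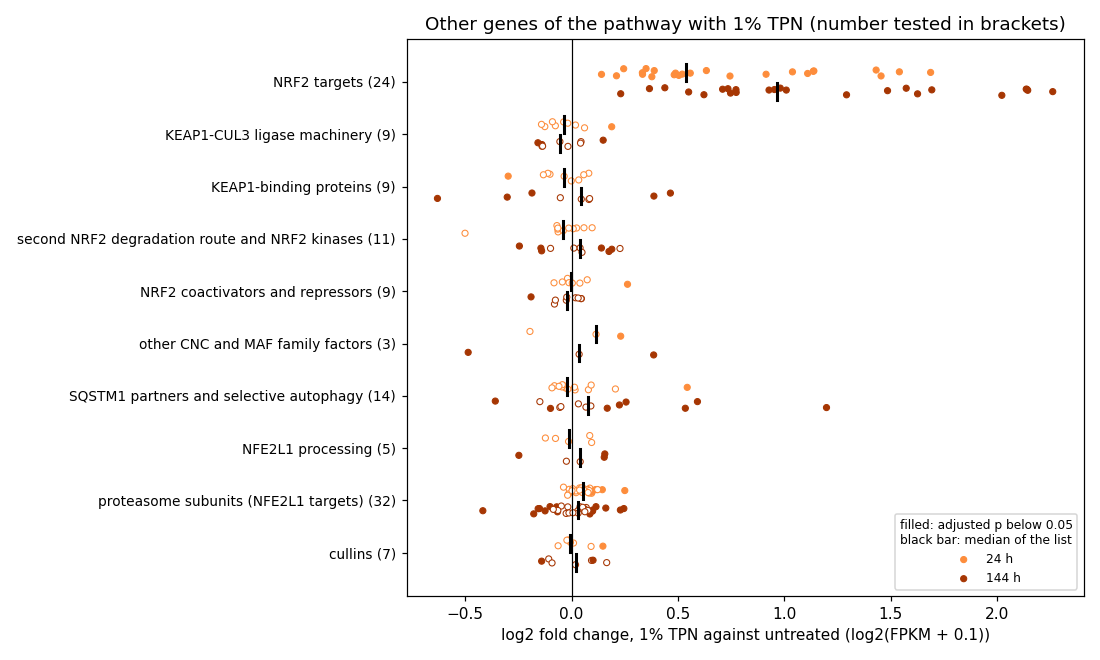
Log2 fold change with 1% TPN against untreated (log2(FPKM + 0.1)) of the genes in 10 lists, at 24 h (light, upper row of each list) and 144 h (dark, lower row); each point is a gene, filled where the limma adjusted p was below 0.05, and black bars are list medians. All 24 NRF2 targets lie right of 0 at both times (medians 0.54 and 0.97), whereas the medians of the other lists lie between -0.05 and 0.12.

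The genes whose pattern over the 12 libraries was most like that of each member were found by Pearson correlation of log2(FPKM + 0.1), a description over libraries that share 4 groups. For SQSTM1 they were AKR1C2 (r = 0.997), OSGIN1 (r = 0.992) and GCLC (r = 0.987), and for OSGIN1 they were SQSTM1, AKR1C2 (r = 0.990) and SLC1A5 (r = 0.980). NFE2L2 was most like PAQR8 (r = 0.965), SERPINF2 (r = 0.962) and SERPINA5 (r = 0.961), and it ran opposite to OSGIN1 (r = -0.952) and SQSTM1 (r = -0.945). KEAP1 was most like PRR5 (r = 0.984), LRP8 (r = 0.982) and the NRF2 target NQO1 (r = 0.977).

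BACH1 was most like TGIF1, SMOX and RBM24 (r = 0.991 for each, or just under), and MAFG was most like CEP290, SH2D5 and YBX3 (r = 0.990 to 0.991). MAFF was most like ARHGEF2, ETS2 and PGK1 (r = 0.997 to 0.998), MAFK like PPFIA4, P4HA2 and PDIA2 (r = 0.995 to 0.996), and NFE2L1 like TNS1, FAM110C and HERPUD1 (r = 0.998 to 0.999). MAFF, MAFK and NFE2L1 were also alike among themselves, with r = 0.980 for MAFF and MAFK, r = 0.989 for MAFF and NFE2L1 and r = 0.978 for MAFK and NFE2L1. CUL3 was most like UTP25, CANT1 and PHTF1 (r = 0.967 to 0.968).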

How the data were processed

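RNA of 12 libraries, 3 in each of 4 groups, was quantified by the authors as FPKM per gene. Per the submitters' processing notes and the study's methods, reads were filtered with SOAPnuke, aligned with HISAT2 2.0.4 and Bowtie2 2.2.5 against GRCh38.p13 and quantified with RSEM. The libraries were strand-specific, and the strand setting of the quantification is not given in the sources used here. The deposited FPKM values were used as they stand, without further scaling. Of 16725 lines, 20 could not be read as genes and were left out.

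The study's own test models read counts, which FPKM are not. Therefore log2(FPKM + 0.1) of the 11713 genes with a mean of at least 0.5 FPKM was fitted here with limma 3.58.1 in R 4.3.3 (lmFit over the 4 groups, eBayes with trend), with the study's thresholds of an adjusted p of 0.05 and a log2 fold change of 0.58. Folds of low genes are understated on this scale. The procedure was tested on simulated data. Groups were taken from the sample labels, and the replicates are described as independent experiments.

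The members, gene lists and tests were chosen with earlier results of these data known. All members are named. From each list, up to 3 genes that rose most and up to 3 that fell most at 144 h are named (adjusted p below 0.05, mean of at least 5 FPKM), and for each member the 3 genes of highest correlation. Some genes that meet this rule are not reported here. Library depth was estimated from steps in low FPKM values, and no error of that estimate was computed. Alternatives changed the pseudocount, filter, scaling, trend, threshold, libraries and replicate block. Promoter windows and motif shares come from RefSeq (GRCh38.p14). Python 3.11.15 with pandas 2.3.3 and matplotlib 3.10.9 made the tables and plots.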

Additional observations from a re-analysis of the deposited data

Results flagged for a closer look

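For 4 of the 10 genes the effect of TPN differed between the times by a test of the difference itself, and in each the log2 fold change was larger at 144 h than at 24 h. The difference was 0.41 for SQSTM1 (0.4134, limma adjusted p = 5.267e-05), 0.23 for MAFG (0.2279, limma adjusted p = 0.00392), 0.34 for MAFK (0.3428, limma adjusted p = 0.0427) and 0.18 for OSGIN1 (0.1786, limma adjusted p = 0.0423). In the same test 30.4% of all genes passed. The SQSTM1 and MAFG differences passed in all 23 alternative settings tried, and those of MAFK and OSGIN1 in 13 of 23.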

How the results depend on the processing

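In all, 24 alternatives gave 1190 values for the members, of which 1133 kept direction and side of the threshold, 38 no longer passed, 11 newly passed and 8 changed direction. All changes of direction concerned exposed spheroids at 144 h against 24 h. CUL3 gave 0.0873 with median-ratio scaling, 0.0789 with quantile normalization and 0.0444 with the GC content and length trend removed, and NFE2L2 gave 0.1517, 0.162 and 0.0896, where both scalings move the median of all genes towards 0. NFE2L2 passed as higher in each of these settings (limma adjusted p = 0.0006264, 0.0001537 and 0.0118). CUL3 passed as higher with median-ratio scaling (limma adjusted p = 0.0368). These passes are counted among the changes of direction. The same 2 scalings made 7 members DEGs in that comparison instead of 4, and 4 instead of 3 in untreated spheroids over time. With the GC content and length trend removed, the DEGs over time also included MAFG under TPN (0.62) and BACH1 in untreated spheroids (0.62). Without a fold-change threshold 7, 9, 4, 8 and 9 members were called, in the order of TPN at 24 h, TPN at 144 h, the difference between them, untreated over time and TPN over time, in place of 2, 2, 0, 3 and 4. Of all genes 10.5%, 52.5%, 30.4%, 72.6% and 76.2% passed, in the same order. For the difference between the times 2 members passed without the filter on low values and 2 without the eBayes trend, against 4. Leaving out single libraries left 7 members passing at 24 h, 8 to 9 at 144 h, 2 to 4 for the difference and 8 to 9 for either comparison of times, and it changed no count of DEGs. The 2 passing members were MAFG and SQSTM1 without untreated 24 h replicate 2, 1% TPN 24 h replicate 1 or 3, untreated 144 h replicate 1, or 1% TPN 144 h replicate 2 or 3. The removal of the GC content and length trend, alone or with the replicate block, was chosen after seeing the data. Same-numbered libraries correlated between -0.083 and 0.1508 in their deviations from the group means (median 0.0457, 5 of 18 pairs over 0.1) and differently numbered ones between -0.2411 and 0.1138 (median -0.016, 2 of 36 over 0.1), and 7 of 12 correlated best with their own number. Pairing was taken as given only where every pair exceeded 0.1, which was not met, so the numbers were not used as pairs, although same-numbered libraries were somewhat more alike. With the replicate block 7, 9, 4, 8 and 9 members passed, as without it. Of the 11713 genes, 1226 were called at 24 h in place of 1230, and 6130 at 144 h in place of 6144. For the difference, untreated over time and TPN over time, 3550, 8495 and 8882 were called in place of 3565, 8498 and 8925. The restriction to the groups compared was not run for the difference between the times, which needs all 4.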
